A study of Homo sapiens with 12 samples.

Results

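The genes described here are 45 human genes that act in the G2 phase of the cell cycle, in mitosis and in the spindle checkpoint. They were taken from a list of symbols that names cyclins, mitotic kinases, checkpoint proteins, kinesins, kinetochore proteins and cytokinesis factors. The rule that picks them uses names and no measured value, but the list was drawn up with earlier results of these data known. Each of the 45 symbols matched 1 row of a table of 62757 genes, and all 45 were among the 15524 genes tested. The table came from U87, also called U87MG, a human glioblastoma cell line that was treated for 72 h before RNA was taken. It held 12 poly(A) RNA libraries, 3 for each of 4 groups: vehicle, 30 µM of compound 1, 10 µM of compound 4 and 5 µM of compound 5. The labels call the 3 libraries of a group independent biological replicates and do not say what the vehicle was. The study's title refers to the diterpene taxodione and to the microtubule drug paclitaxel. Since the numbers are not tied to molecules in the labels, numbers alone are used here. The doses differed between compounds, all groups came from 1 cell line, and no dose series, earlier time or measure of the cell cycle was used here.

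Entry into mitosis is driven by cyclin B bound to the kinase CDK1, which CDC25 phosphatases activate and PLK1 and Aurora kinases reinforce. While chromosomes are not yet attached to the spindle, the spindle checkpoint holds back CDC20, an activator of the anaphase-promoting complex. Once CDC20 is released, this ubiquitin ligase marks cyclin B and securin for destruction, separase cuts cohesin and the chromosomes part. Most of these genes are transcribed in G2 and mitosis and kept low in G1, through the MuvB complex, which binds a promoter element called the CHR with either repressors or the activators B-MYB and FOXM1. NF-Y, which binds CCAAT boxes, is the other factor known for these promoters. Because their RNA follows the cell cycle, a lower level in a bulk sample can come from fewer cells in G2 and mitosis or from less RNA in each cell, and these cannot be told apart here.

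The unit throughout is the rlog, a regularized log2 value. The rlog step shrinks differences and spread, most for genes with few reads, and values are not per gene length, so levels are compared between groups and not between genes. Without counts, sequencing depth is unknown. The residual SD of the 45 genes ran from 0.032 to 0.112 with a median of 0.0581, against a median of 0.0468 for all genes tested. Differences below are log2 differences of group means (n = 3 per group) with the standard error (SE) of limma, and adjusted p-values are limma's, corrected by the Benjamini-Hochberg method over all genes tested. A gene is said to have risen or fallen when this adjusted p was under 0.05.

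Of 8 marker genes listed for a glioma line with mesenchymal features, 6 had a mean of at least 3, the limit for testing: VIM stood at 15.98, CD44 at 15.20, CHI3L1 at 12.99, NES at 10.55, OLIG2 at 6.50 and GFAP at 5.71, while SOX2 and S100B stood at 0.09 and 0.77. Of the leukocyte markers 0 of 4 and of the epithelial markers 1 of 3 reached that limit. Some markers moved with treatment, given here as summed linear levels (the rlog values raised from log2 and added). The 8 glioma markers summed to 110200 to 112400 with vehicle, 110600 to 114300 with compound 1, 105200 to 106300 with compound 4 and 118200 to 122400 with compound 5. VIM, NES and CHI3L1 fell by 0.22, 0.27 and 0.18 with compound 4, NES fell by 0.12 with compound 5, and CD44 rose by 0.19 and 0.20 with compounds 4 and 5. The 3 neuron markers summed to 736.7 to 762.3 with vehicle, 758.3 to 761.9 with compound 1, 926.3 to 980.6 with compound 4 and 945.0 to 994.7 with compound 5; SNAP25 rose by 0.55 and 0.61 with compounds 4 and 5 and SYT1 fell by 0.20 and 0.26. The 3 endothelial markers, of which 2 reached the limit, summed to 99.84 to 105.2, 97.61 to 105.0, 85.42 to 88.09 and 88.09 to 92.66 in the same order. NEAT1 and MALAT1, nuclear noncoding RNAs, summed to 3834 to 5141, 5670 to 7302, 7375 to 7720 and 6521 to 7611. NEAT1 rose with each compound and MALAT1 passed only with compound 5. They were listed as possible signs of RNA quality, but whether they reflect it was not tested. The part of these genes in the results below was not tested. Replicate 3 of compound 1 and replicate 1 of compound 5 lay farthest from the other libraries of their groups, with a root mean square distance of 0.0725 and 0.0914 over all genes tested, and counts without both are given beside the results on the 45 genes and, where they moved most, on the other lists.

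Promoter letters, which the list did not use, could be read for most of the 45 genes. A RefSeq promoter, 250 bases before to 50 bases after the annotated start on GRCh38.p14, was held for 39 of them and not for AURKA, BUB3, TTK, TPX2, BIRC5 and UBE2C. The letters of a CHR, TTTGAA or TTCGAA on either strand, stood in a promoter of 31 of the 39 genes (79.5%), against 19.5% of 27305 genes with a promoter and 16.0% of 10382 protein-coding genes tested. A CCAAT box on either strand stood in 33 (84.6%), against 39.7% and 43.6%, and both stood in 27 (69.2%), against 9.02% and 8.78%. The letters of an E2F site, the third motif searched, stood in 2 (5.13%), against 3.99% and 6.57%, so their share was near that of other genes. These matches describe letters, not binding. In the first promoter of each gene the median CHR began at -26 and the median CCAAT box at -69. Positions count the annotated start as 1 and the base before it as -1. The 4 promoters below are shown because they belong to genes on which the results turn: CDC20 and PLK1, which fell most with compound 1, CCNB2, which fell with each compound, and KIF4A, which rose with compounds 4 and 5. The regions are chr1:43358731-43359030 for CDC20, chr16:23678639-23678938 for PLK1, chr15:59104896-59105195 for CCNB2 and chrX:70289854-70290153 for KIF4A, all on the plus strand, and capitals mark CHR letters and CCAAT boxes on either strand.
CDC20: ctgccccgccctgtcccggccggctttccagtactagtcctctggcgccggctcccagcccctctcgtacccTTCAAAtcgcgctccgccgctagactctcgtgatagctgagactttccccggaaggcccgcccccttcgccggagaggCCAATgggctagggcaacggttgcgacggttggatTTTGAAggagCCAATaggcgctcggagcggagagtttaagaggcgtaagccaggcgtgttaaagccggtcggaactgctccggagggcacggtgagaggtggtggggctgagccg
PLK1: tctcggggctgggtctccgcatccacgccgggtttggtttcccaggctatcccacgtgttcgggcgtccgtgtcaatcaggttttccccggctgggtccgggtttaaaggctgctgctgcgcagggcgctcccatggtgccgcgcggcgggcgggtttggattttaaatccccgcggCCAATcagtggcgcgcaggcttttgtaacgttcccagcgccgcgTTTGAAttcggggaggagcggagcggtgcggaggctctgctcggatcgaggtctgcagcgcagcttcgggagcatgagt
CCNB2: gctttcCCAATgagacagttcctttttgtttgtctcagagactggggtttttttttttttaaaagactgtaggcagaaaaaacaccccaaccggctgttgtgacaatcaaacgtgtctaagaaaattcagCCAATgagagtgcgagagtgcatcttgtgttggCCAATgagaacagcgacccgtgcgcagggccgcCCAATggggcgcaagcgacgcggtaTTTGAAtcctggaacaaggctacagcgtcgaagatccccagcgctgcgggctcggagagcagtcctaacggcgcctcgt
KIF4A: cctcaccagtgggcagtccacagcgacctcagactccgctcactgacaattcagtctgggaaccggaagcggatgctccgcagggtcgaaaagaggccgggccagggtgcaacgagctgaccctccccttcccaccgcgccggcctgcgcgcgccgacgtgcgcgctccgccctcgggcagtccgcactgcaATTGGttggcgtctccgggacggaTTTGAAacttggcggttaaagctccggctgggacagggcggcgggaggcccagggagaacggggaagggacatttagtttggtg
In CDC20 the CHR letters began at -178 and -65 and the CCAAT boxes at -100 and -55. PLK1 had a CHR at -29 and a CCAAT box at -73, and KIF4A had them at -34 and -58. CCNB2 had a CHR at -29 behind 4 CCAAT boxes at -244, -120, -87 and -54. Among genes with a promoter, 8 of 13 that fell with compound 1 held a CHR, against 23 of 26 that did not pass, and 12 of 13 held a CCAAT box, against 21 of 26. With compound 4, a CHR stood in 7 of 7 genes that rose and in 6 of 7 that fell, and a CCAAT box in 7 of 7 of each, against 18 of 25 and 19 of 25 of the genes that did not pass. With compound 5, a CHR stood in 7 of 9 that rose, 8 of 10 that fell and 16 of 20 that did not pass, and a CCAAT box in 7 of 9, 10 of 10 and 16 of 20.

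**Figure D1:**
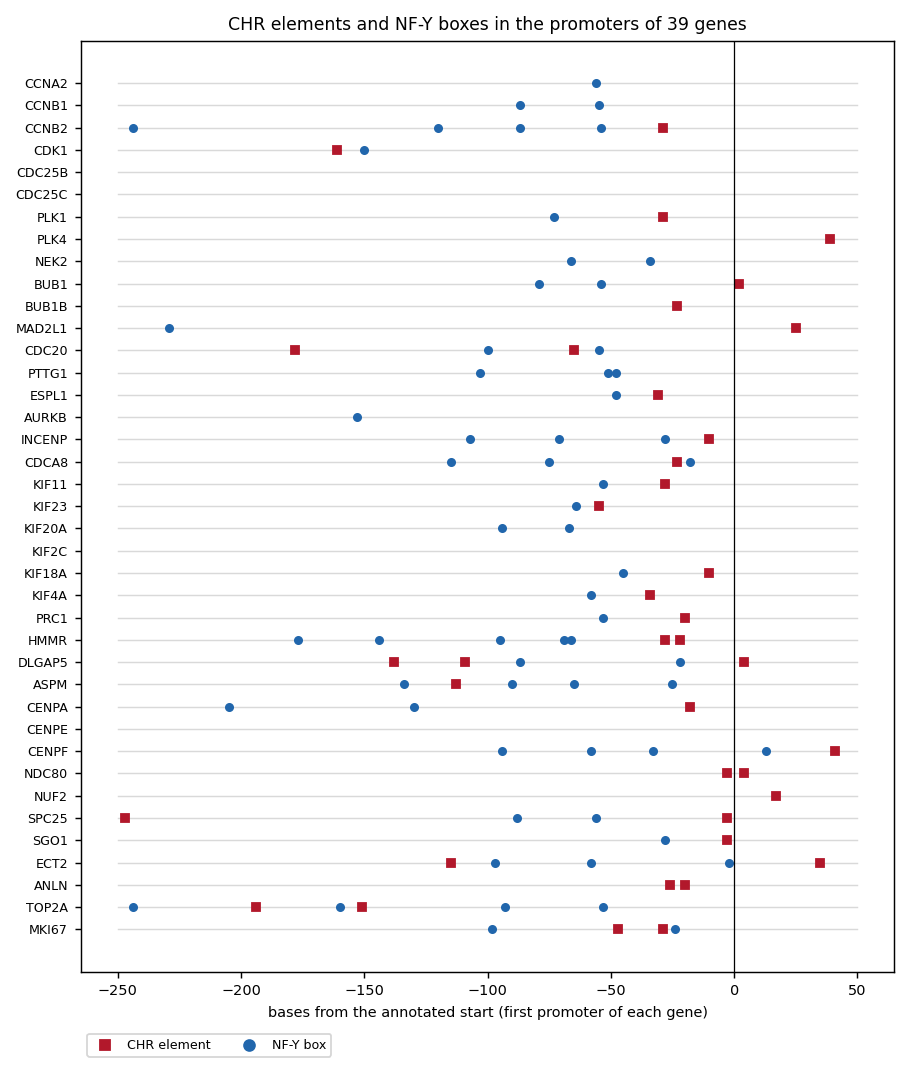
Positions of CHR letters (red squares) and CCAAT boxes (NF-Y boxes, blue circles) in the first RefSeq promoter of 39 genes, in bases from the annotated start, with 1 line per gene. Most CCAAT boxes lie upstream of the CHR letters, with medians of -69 and -26; the counts of genes in the text use every promoter of a gene.

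With compound 1, mitotic genes fell in 8 of 10 roles and none rose. Of the 45 genes, 16 fell and 0 rose, or 35.6% called, beside 10.9% of all genes tested (5.24% higher and 5.63% lower). The difference from vehicle was below 0 for 44 of 45 genes, with a median of -0.11 and a range from -0.29 to 0.02, while the median over all genes tested was -0.0029. At limma's unadjusted p under 0.05, 27 genes differed and 0 of them were higher. The share of all genes tested at that limit is not given here, so this count cannot be judged against it. In 22 genes all 3 treated libraries lay below all 3 vehicle libraries, a state that 16.7% of all genes tested showed.

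CDC20, the checkpoint's target and an activator of the anaphase-promoting complex, fell most of the 45. The gene (ENSG00000117399.14, chr1:43358955-43363203, plus strand) stood at 11.75, 11.82 and 11.78 with vehicle and at 11.47, 11.61 and 11.41 with compound 1. All 3 treated libraries were lower, and the difference was -0.29 (SE 0.041, fold 0.819, adjusted p = 3.02e-05). PTTG1, securin, fell by 0.13 (adjusted p = 0.0472). UBE2C, a ubiquitin-conjugating enzyme of the same complex, and ESPL1, separase, did not pass, with differences of -0.06 and -0.05.

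Of the 4 mitotic and centriole kinases, 3 fell. PLK1, which drives mitotic entry, spindle assembly and cytokinesis (ENSG00000166851.15, chr16:23677656-23690367, plus strand), stood at 11.42, 11.42 and 11.38 with vehicle and at 11.16, 11.25 and 11.04 with compound 1, a difference of -0.26 (SE 0.042, adjusted p = 0.000171) with no overlap. AURKA, the spindle pole kinase (ENSG00000087586.18, chr20:56369389-56392337, minus strand), stood at 11.67, 11.70 and 11.57 and at 11.39, 11.48 and 11.33, a difference of -0.25 (SE 0.043, adjusted p = 0.000304), again with no overlap. In both genes replicate 3 was the lowest treated library. An antisense gene shares 11.62% of the exon bases of PLK1, and the strand setting of the counting is not stated, so reads of both cannot be told apart; that gene had a mean rlog of -1.49. NEK2, a kinase of centrosome separation, fell by 0.18 (adjusted p = 0.00797). PLK4, which starts centriole duplication, had a difference of -0.01 (adjusted p = 0.939).

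Both B-type cyclins fell. CCNB1 (ENSG00000134057.15, chr5:69167010-69178245, plus strand) stood at 12.17, 12.17 and 12.10 with vehicle and at 11.99, 11.95 and 11.87 with compound 1, a difference of -0.21 (adjusted p = 0.00189). CCNB2 (ENSG00000157456.8, chr15:59105078-59125045, plus strand) stood at 10.59, 10.60 and 10.56 and at 10.41, 10.44 and 10.34, a difference of -0.19 (adjusted p = 0.00166). The groups did not overlap in either gene. CCNA2, the cyclin of S phase and G2, fell by 0.16 (adjusted p = 0.0245) with overlapping libraries; EXOSC9, on the other strand and with a mean rlog of 9.70, shares 9.08% of its exon bases. Their partner CDK1 did not pass: it stood at 10.62, 10.80 and 10.76 with vehicle and at 10.72, 10.83 and 10.60 with compound 1, a difference of -0.01 (95% interval -0.11 to 0.09). The phosphatase genes CDC25B and CDC25C had differences of 0.02 and -0.09 and did not pass.

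Among spindle genes, HMMR, a microtubule-binding spindle factor, fell by 0.22 (adjusted p = 0.00166), with vehicle at 10.20, 10.29 and 10.25 and compound 1 at 10.01, 10.15 and 9.92. KIF2C, a kinesin that depolymerizes microtubules at centromeres, fell by 0.20 (adjusted p = 0.00131), from 10.64, 10.75 and 10.69 to 10.51, 10.53 and 10.44. Neither gene had overlapping groups. TPX2, which activates Aurora A on the spindle, fell by 0.18, from 12.36, 12.45 and 12.42 to 12.26, 12.31 and 12.12, again without overlap, and DLGAP5, which stabilizes kinetochore fibres, fell by 0.14. KIF2C was the 1 kinesin of 6 to fall: KIF11, KIF18A, KIF20A, KIF23 and KIF4A had differences from -0.12 to -0.06. In the chromosomal passenger complex, which corrects attachments at the centromere, BIRC5 (survivin) fell by 0.18 and INCENP, its scaffold, by 0.16, whereas its kinase AURKB and its subunit CDCA8 had differences of -0.05 and -0.08. ECT2, a cytokinesis factor needed for the cleavage furrow, fell by 0.18 (adjusted p = 0.00220), and the furrow scaffold ANLN had a difference of -0.09.

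Checkpoint and kinetochore genes mostly did not pass. BUB1, a checkpoint kinase, fell by 0.13, and BUB1B, BUB3, MAD2L1 and TTK had differences from -0.11 to -0.07. Of 7 centromere and kinetochore genes 0 passed in limma, with differences from -0.13 for SPC25 to -0.04 for NUF2. At limma's unadjusted p under 0.05, again without the share of all genes, 4 were lower. The proliferation antigen gene MKI67 had a difference of -0.04 (95% interval -0.16 to 0.08) and TOP2A, the mitotic topoisomerase, of -0.05 (95% interval -0.13 to 0.04). Both intervals span 0.

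The size of the compound 1 difference varied between its libraries. Over the 45 genes the median deviation from the vehicle mean was -0.10, -0.07 and -0.17 in replicates 1 to 3 of compound 1, and -0.04, 0.04 and 0.00 in the vehicle libraries. Without both libraries that lay farthest from their groups, 14 of the 45 genes fell and 0 rose, beside 5.65% and 5.53% of all genes tested. Leaving out 1 library ended some calls: TPX2 (difference -0.13) and NEK2 (-0.14) without replicate 3 of compound 1, NEK2 also without replicate 1 of vehicle (-0.16), and INCENP (-0.14) and DLGAP5 (-0.12) without replicate 2 of vehicle. CCNA2 lost its call without replicate 1 (-0.16) or 2 (-0.13) of vehicle or replicate 1 (-0.15) or 3 (-0.10) of compound 1. BUB1 and PTTG1 lost theirs without any 1 of the vehicle libraries or without replicate 1 or 3 of compound 1, with differences from -0.14 to -0.10 for BUB1 and from -0.13 to -0.10 for PTTG1. The other 9 called genes kept their calls in each of these fits. NEAT1 rose by 0.54, and its highest compound 1 library, at 12.67, was replicate 3, in which the 45 genes were lowest; its part in the result was not tested.

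**Figure D2:**
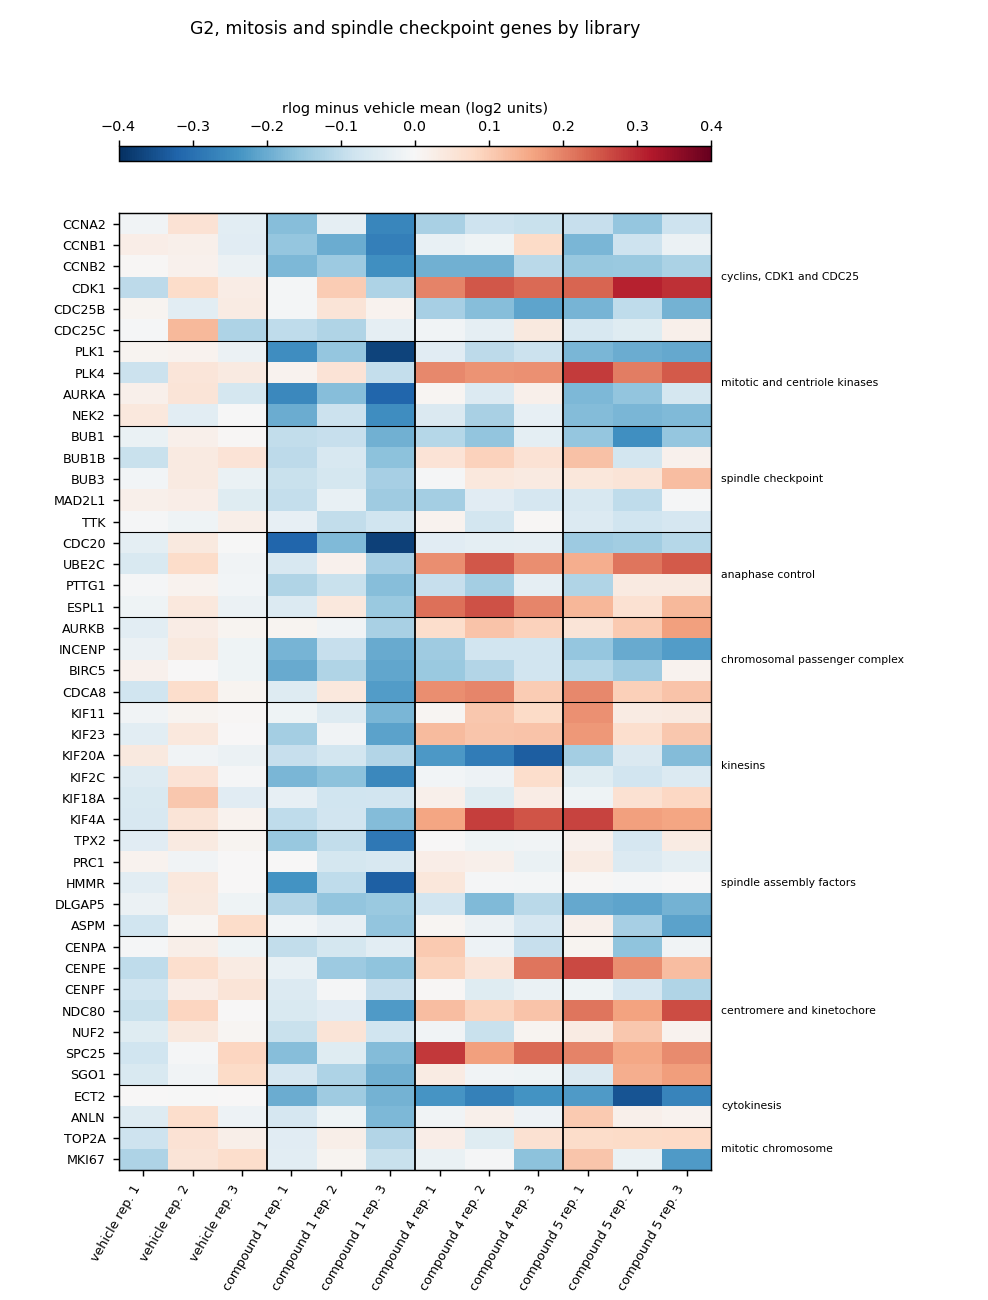
Deviation of each of the 45 genes (rows, grouped by role) from its vehicle mean in each of 12 libraries (columns), in log2 units of the rlog value. The compound 1 columns are blue in most rows, with 42, 36 and 44 of 45 genes below the vehicle mean in replicates 1 to 3. In vehicle replicates 1 to 3, 34, 8 and 21 of 45 genes lay below that mean, so this count also varied widely without treatment. The compound 4 and compound 5 columns hold red and blue rows side by side.

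Compound 4 split the 45 genes: 8 rose and 8 fell. The share called, 35.6%, was near the 40.6% of all genes tested that were called with this compound (19% higher and 21.6% lower), so the count itself is not a result about these genes. The median difference was -0.0045, beside -0.0013 over all genes tested, and differences ran from -0.28 to 0.23. The libraries did not overlap with vehicle for 10 higher and 11 lower genes, where 25.2% and 28.2% of all genes tested showed this. With quantile-normalized libraries the split was 10 higher and 4 lower, and without both libraries that lay farthest from their groups it was 11 and 11. In that last fit 21.2% of all genes tested were higher and 24.3% lower, so those counts too were near the overall share. Neither library left out belonged to compound 4 or vehicle, so only the shared estimate of the spread changed. The lower count fell to 5 without replicate 1 of vehicle or of compound 4, and to 4 without replicate 2 of either group.

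The genes that fell included a kinesin, a cytokinesis factor, a cyclin and a phosphatase. KIF20A, the kinesin that carries passenger proteins to the central spindle (ENSG00000112984.12, chr5:138178719-138187715, plus strand), stood at 10.98, 10.92 and 10.91 with vehicle and at 10.71, 10.66 and 10.61 with compound 4. Every treated library was lower, by a difference of -0.28 (SE 0.039, fold 0.824, adjusted p = 1.66e-06). BRD8 and CDC23, on the other strand and with mean rlog values of 10.02 and 9.60, share 3.34% and 1.72% of its exon bases. ECT2 (ENSG00000114346.14, chr3:172750682-172821474, plus strand) stood at 11.27, 11.27 and 11.27 with vehicle and at 11.03, 11.00 and 11.03 with compound 4, a difference of -0.25 (SE 0.037, adjusted p = 4.10e-06). CDC25B, an activator of CDK1 at mitotic entry, stood at 10.85, 10.79 and 10.87 with vehicle and at 10.70, 10.67 and 10.63 with compound 4, a difference of -0.17 (adjusted p = 0.000670), without overlap. CCNB2 fell to 10.39, 10.39 and 10.48, a difference of -0.16 (adjusted p = 0.000995), while CCNB1, at 12.12, 12.13 and 12.23, had a difference of 0.01. The remaining decreases were small. DLGAP5 fell by 0.12, from 10.65, 10.72 and 10.66 to 10.60, 10.50 and 10.57, and BIRC5 by 0.11, from 11.68, 11.66 and 11.64 to 11.51, 11.54 and 11.58. BUB1 fell by 0.10, from 10.99, 11.04 and 11.02 to 10.90, 10.86 and 10.98, and INCENP by 0.099, from 10.96, 11.02 and 10.97 to 10.84, 10.91 and 10.91. In each of the 4 genes all treated libraries lay below all vehicle libraries.

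The genes that rose included CDK1, kinesins and genes of anaphase control. CDK1 (ENSG00000170312.17, chr10:60778331-60794852, plus strand) stood at 10.62, 10.80 and 10.76 with vehicle and at 10.93, 10.98 and 10.96 with compound 4, above all vehicle libraries, a difference of 0.23 (SE 0.048, fold 1.17, adjusted p = 0.000431). KIF4A, a chromosome-bound kinesin that works with PRC1 at the spindle midzone (ENSG00000090889.12, chrX:70290090-70420832, plus strand), stood at 9.93, 10.04 and 10.00 and at 10.15, 10.27 and 10.24, a difference of 0.23 (SE 0.044, adjusted p = 0.000125). SPC25, a subunit of the NDC80 complex that binds microtubules at the outer kinetochore, rose by 0.22, from 8.37, 8.44 and 8.54 to 8.73, 8.61 and 8.68. In anaphase control, ESPL1 rose by 0.22, from 9.65, 9.71 and 9.64 to 9.89, 9.92 and 9.86, and UBE2C by 0.21, from 11.34, 11.47 and 11.39 to 11.58, 11.65 and 11.59. None of these genes had overlapping groups. PLK4 rose by 0.19, from 8.64, 8.77 and 8.76 to 8.92, 8.90 and 8.91, CDCA8 by 0.16, from 9.94, 10.09 and 10.03 to 10.21, 10.22 and 10.12, and KIF23, the kinesin of centralspindlin, by 0.12, from 10.61, 10.70 and 10.66 to 10.78, 10.77 and 10.77. These 3 genes had no overlap with vehicle.

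The genes that led the response to compound 1 did not pass here. CDC20 stood at 11.74, 11.75 and 11.75 with compound 4, a difference of -0.04 (adjusted p = 0.465), PLK1 at 11.36, 11.30 and 11.32, a difference of -0.08, and AURKA at 11.66, 11.59 and 11.67, a difference of -0.01. Of the called genes, KIF23, INCENP, BUB1, BIRC5, CDCA8 and DLGAP5 lost their calls when single libraries were left out. KIF23 did so without any library of the comparison but replicate 2 of vehicle (differences 0.10 to 0.12), and INCENP without any single library (-0.08 to -0.11). BUB1 did so without any library but replicate 3 of compound 4 (-0.08 to -0.12), and BIRC5 without replicate 1 or 2 of vehicle or of compound 4 (-0.10 to -0.11). CDCA8 did so without replicate 1 of vehicle (0.12) or replicate 1 (0.15) or 2 (0.14) of compound 4, and DLGAP5 without replicate 2 of vehicle (-0.10) or of compound 4 (-0.09). The other 10 called genes kept their calls in each of these fits. NEAT1 rose by 0.84 with compound 4, and its part in the result was not tested.

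**Figure D3:**
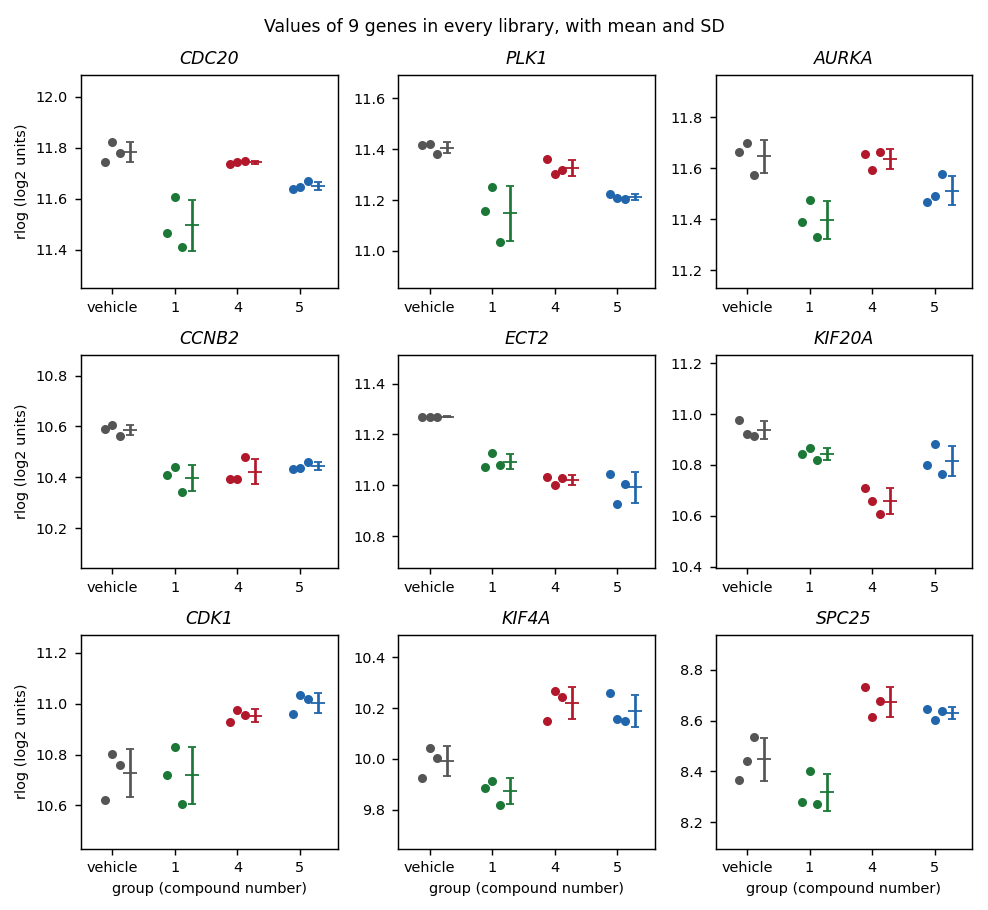
Rlog values of 9 genes in every library (points), with the group mean and SD (bar, n = 3); each panel spans the same range of log2 units. CDC20, PLK1 and AURKA lie lowest with compound 1, CCNB2 and ECT2 lie below vehicle with each compound, KIF20A lies lowest with compound 4, and CDK1, KIF4A and SPC25 lie above vehicle with compounds 4 and 5.

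Compound 5 also moved the 45 genes both ways: 10 rose and 11 fell, or 46.7% called, where 35.1% of all genes tested were called (15.9% higher and 19.2% lower). The median difference was -0.02 and the range -0.28 to 0.28, beside a median of -9e-04 over all genes tested. Libraries did not overlap with vehicle for 14 higher and 12 lower genes, a state of 20.9% and 23.2% of all genes tested. The split was 14 higher and 7 lower with quantile-normalized libraries, 7 and 12 with median-centred libraries, and 10 and 15 without both libraries that lay farthest from their groups. Of all genes tested, 16.9% were higher and 21.6% lower in the last of these fits.

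ECT2 fell most. It stood at 11.04, 10.93 and 11.01 with compound 5, below all vehicle libraries, a difference of -0.28 (SE 0.037, fold 0.825, adjusted p = 1.29e-06). DLGAP5 stood at 10.65, 10.72 and 10.66 with vehicle and at 10.47, 10.47 and 10.49 with compound 5, a difference of -0.20 (adjusted p = 0.000108). PLK1 stood at 11.22, 11.21 and 11.20, a difference of -0.19 (adjusted p = 0.000634), with libraries close to each other and apart from vehicle. INCENP fell by 0.19, from 10.96, 11.02 and 10.97 to 10.83, 10.78 and 10.76, and BUB1 by 0.19, from 10.99, 11.04 and 11.02 to 10.86, 10.77 and 10.86. NEK2 fell by 0.18, from 9.86, 9.77 and 9.82 to 9.64, 9.63 and 9.64. The groups did not overlap in these genes. CDC25B fell by 0.16, to 10.65, 10.73 and 10.65, and CCNB2 by 0.14, to 10.43, 10.44 and 10.46. The smaller decreases were those of AURKA by 0.13 with overlapping libraries, CDC20 by 0.13 and KIF20A by 0.12.

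CDK1 rose most, to 10.96, 11.03 and 11.02, a difference of 0.28 (SE 0.048, fold 1.21, adjusted p = 5.28e-05). PLK4 stood at 8.64, 8.77 and 8.76 with vehicle and at 9.00, 8.93 and 8.97 with compound 5, a difference of 0.24 (adjusted p = 0.000150). Both lay above all vehicle libraries. Of the 7 centromere and kinetochore genes 3 rose: NDC80, the subunit that names the microtubule-binding complex, by 0.21, from 9.50, 9.68 and 9.60 to 9.81, 9.75 and 9.85; CENPE, a kinesin that moves chromosomes to the spindle equator, by 0.19, from 10.42, 10.58 and 10.55 to 10.78, 10.70 and 10.64; and SPC25 by 0.18, to 8.65, 8.60 and 8.64. UBE2C rose by 0.20, to 11.55, 11.61 and 11.65, and KIF4A by 0.20, to 10.26, 10.16 and 10.15. None of these 5 genes overlapped with vehicle. CDCA8 (0.13), KIF23 (0.12) and AURKB (0.11) also passed, with adjusted p-values of 0.0454, 0.0369 and 0.0490.

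These last 3 calls rested on few libraries. CDCA8 and KIF23 lost theirs without replicate 1 or 3 of vehicle or of compound 5, with differences from 0.09 to 0.14 and from 0.09 to 0.12. AURKB lost its call without any library but replicate 1 of compound 5 (0.08 to 0.12). CDC20 lost its call without replicate 2 of vehicle (-0.11), AURKA without replicate 1 (-0.13) or 2 (-0.11) of vehicle or replicate 2 of compound 5 (-0.12), and KIF20A without replicate 1 of vehicle (-0.10) or replicate 3 of compound 5 (-0.10). The other 15 called genes kept their calls in each of these fits. NEAT1 rose by 0.72 and MALAT1, another nuclear RNA, by 0.42 with compound 5, and their part in the result was not tested.

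**Figure D4:**
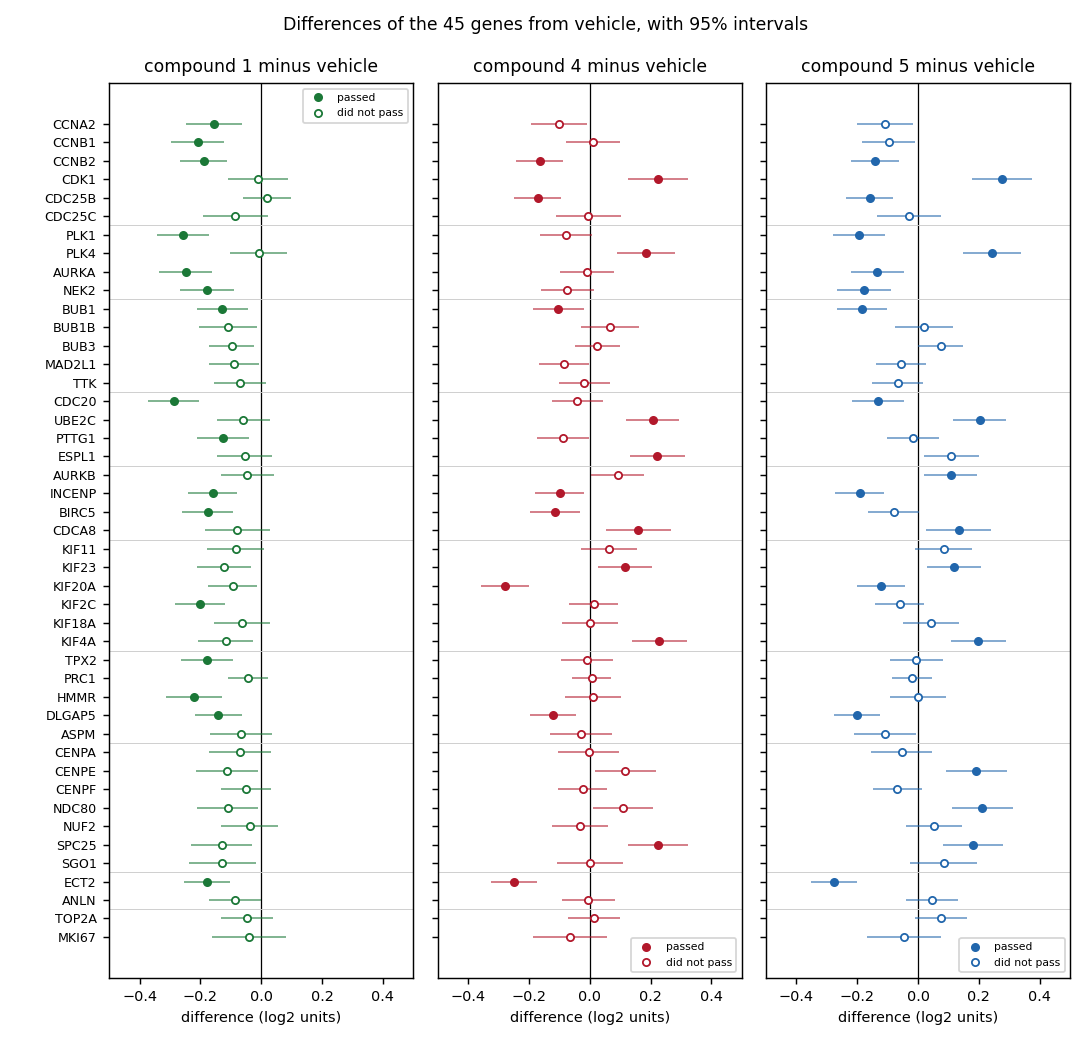
Difference of each of the 45 genes from vehicle (x axis, log2 units) for compounds 1, 4 and 5, with 95% intervals; filled points passed an adjusted p of 0.05. With compound 1 the points lie left of 0 for 44 of 45 genes, while with compounds 4 and 5 the called genes lie on both sides, 8 higher and 8 lower and 10 higher and 11 lower.

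Set side by side, the 3 comparisons share the vehicle libraries, and a deviation of those libraries enters all of them. ECT2 had differences of -0.18, -0.25 and -0.28 with compounds 1, 4 and 5, CCNB2 of -0.19, -0.16 and -0.14, and DLGAP5 of -0.14, -0.12 and -0.20. INCENP had -0.16, -0.10 and -0.19, and BUB1 -0.13, -0.10 and -0.19. Each of these 15 differences passed. Those of DLGAP5, INCENP and BUB1 with compounds 1 and 4 lost their calls when single libraries were left out, as given above. Another 16 genes passed with no compound: ANLN, ASPM, BUB1B, BUB3, CDC25C, CENPA, CENPF, KIF11, KIF18A, MAD2L1, MKI67, NUF2, PRC1, SGO1, TOP2A and TTK. PRC1, which bundles midzone microtubules, is uncertain, since 57.57% of its exon bases are shared with another gene on the same strand. That gene had a mean rlog of 6.773, and PRC1 had a vehicle mean of 5.03. CENPA, with a vehicle mean of 8.98, shares 6.96% with SLC35F6, also on the same strand and with a mean rlog of 10.005. BUB1B shares 10.21% with BUB1B-PAK6, on the same strand and with a mean rlog of 0.0. On the other strand, CDC25C, with a vehicle mean of 7.94, shares 8.78% with FAM53C, which had a mean rlog of 10.16. SGO1 shares 17.74% with SGO1-AS1, also on the other strand, which had a mean rlog of 0.857.

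Genes that passed with no compound include the usual markers of dividing cells. MKI67 stood at 12.67, 12.84 and 12.86 with vehicle, 12.75, 12.80 and 12.71 with compound 1, 12.77, 12.79 and 12.63 with compound 4 and 12.90, 12.77 and 12.57 with compound 5. Its differences were -0.04, -0.07 and -0.05, and its libraries overlapped with vehicle with each compound. TOP2A stood at 12.71, 12.86 and 12.82, 12.75, 12.82 and 12.68, 12.82, 12.75 and 12.86 and 12.87, 12.87 and 12.88 in the same order, with differences of -0.05, 0.01 and 0.08. KIF11, the kinesin that pushes spindle poles apart, stood at 10.59, 10.61 and 10.61, 10.58, 10.55 and 10.42, 10.61, 10.71 and 10.68 and 10.79, 10.64 and 10.64. MAD2L1, the checkpoint protein that binds CDC20, stood at 10.75, 10.76 and 10.68, 10.63, 10.70 and 10.59, 10.59, 10.68 and 10.66 and 10.66, 10.63 and 10.72. Their differences were -0.08, 0.06 and 0.08 for KIF11 and -0.09, -0.08 and -0.06 for MAD2L1. CENPA, the histone variant of centromeres, had differences of -0.07, -0.00 and -0.05, CENPF, an outer kinetochore protein, of -0.05, -0.02 and -0.07, and ASPM, a spindle pole protein, of -0.07, -0.03 and -0.11. TTK, the kinase that starts checkpoint signalling, had differences of -0.07, -0.02 and -0.07, and BUB1B, which encodes the checkpoint protein BubR1, of -0.11, 0.07 and 0.02. These values do not show that the genes did not differ, only that any difference did not pass at this spread.

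The 3 compounds were also compared in their 3 pairs, at doses that differ, so a difference between them is one between these treatments. The pairs share libraries. Against compound 1, compound 4 gave 21 genes higher and 2 lower, or 51.1% called, beside 42.7% of all genes tested (20.9% higher and 21.8% lower). SPC25 was higher by 0.36 (adjusted p = 1.06e-06), KIF4A by 0.35 (adjusted p = 3.11e-07), ESPL1 by 0.28 and UBE2C by 0.27. CDC20, PLK1 and AURKA were higher by 0.25, 0.18 and 0.24. CDC25B and KIF20A were the lower genes, at -0.19 (adjusted p = 0.000190) and -0.19 (adjusted p = 0.000333). No overlap between the compounds was seen for 22 higher and 3 lower genes, where 26% and 27% of all genes tested showed this. The count of called genes was 22 without both libraries that lay farthest from their groups. Of these, 20 were higher and 2 lower, beside 19.9% and 21.3% of all genes tested in that fit.

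Against compound 1, compound 5 gave 24 genes higher and 2 lower, or 57.8% called, beside 30.1% of all genes tested (13.9% higher and 16.2% lower). NDC80 was higher by 0.32 (adjusted p = 1.04e-05), KIF4A by 0.32, SPC25 by 0.31 and CENPE by 0.30, and CDC20 by 0.16. CDC25B was lower at -0.18 (adjusted p = 0.000727) and ECT2 at -0.10 (adjusted p = 0.0398). The call of ECT2 was lost without any library of the comparison but replicate 1 of compound 5 (-0.11 to -0.07). No overlap was seen for 21 higher and 3 lower genes, beside 18.8% and 20.2% of all genes tested. The count of 26 fell to 15 without replicate 3 of compound 1 and was 20 without both libraries that lay farthest from their groups. Those 20 were 17 higher and 3 lower, beside 11.8% and 16.3% of all genes tested in that fit.

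Compounds 5 and 4 differed in 3 of the 45 genes, or 6.67%, where 22% of all genes tested differed (10.7% higher and 11.4% lower). Their libraries did not overlap for 6 higher and 8 lower genes, beside 17.5% and 17.6% of all genes tested. KIF20A was higher with compound 5 by 0.16 (SE 0.039, adjusted p = 0.00421), at 10.80, 10.88 and 10.76 against 10.71, 10.66 and 10.61. AURKA was lower by 0.13 (adjusted p = 0.0338) and PLK1 by 0.12 (adjusted p = 0.0481). The count was 1 without replicate 1 or 3 of compound 4 or replicate 2 of compound 5, 7 without replicate 1 of compound 5, and 8 without both libraries that lay farthest from their groups. Those 8 were 3 higher and 5 lower, beside 13.1% and 15.4% of all genes tested in that fit. PLK1 lost its call without any library but replicate 1 of compound 5 (-0.13 to -0.10), and AURKA without replicate 1 or 3 of compound 4 or replicate 1 or 2 of compound 5 (-0.12 to -0.10). For the other 42 genes the differences did not pass, which does not show that the compounds act alike: the 95% interval was -0.05 to 0.15 for CDK1, -0.11 to 0.05 for ECT2 and -0.12 to 0.06 for KIF4A.

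**Figure D5:**
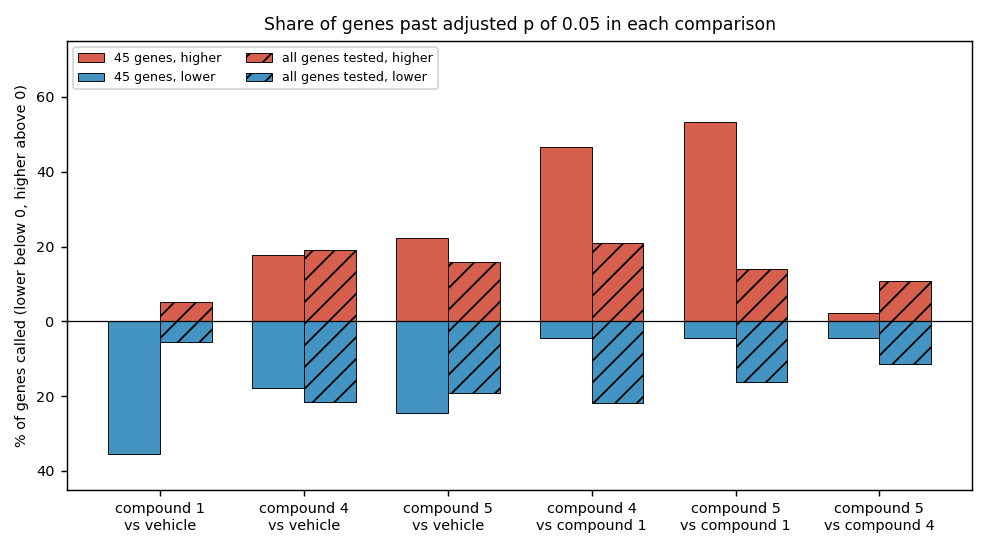
Share of genes past an adjusted p of 0.05 in each of 6 comparisons (percent; higher above 0, lower below 0), for the 45 genes (plain bars) and all 15524 genes tested (hatched bars). The 45 genes stand apart from all genes with compound 1 against vehicle, where 35.6% fell and 0% rose, and lean to higher values when compounds 4 and 5 are set against compound 1.

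Genes of the same pathway outside the 45 were counted from lists by function. The median differences given for a list are those of its tested genes with compounds 1, 4 and 5, beside -0.0029, -0.0013 and -9e-04 over all genes tested. Of all genes tested, 5.24% rose and 5.63% fell with compound 1, 19% and 21.6% with compound 4, and 15.9% and 19.2% with compound 5, and the counts below stand beside these shares. In the fit without both libraries that lay farthest from their groups, the shares were 5.53% and 5.65%, 21.2% and 24.3%, and 16.9% and 21.6%. No list was tested against other genes. The regulators of these promoters showed 0 higher and 4 lower of 21 with compound 1, 5 and 3 with compound 4, and 6 and 4 with compound 5, with medians of -0.03, 0.05 and 0.04. FOXM1, the activator of G2 genes, had differences of -0.22, -0.13 and -0.24, with adjusted p-values of 0.00123, 0.0164 and 0.000112. The second of these calls was lost without replicate 2 of vehicle (-0.10) or replicate 3 of compound 4 (-0.10). MYBL2, which encodes B-MYB, had differences of -0.16, 0.32 and 0.35, with adjusted p-values of 0.0442, 9.40e-06 and 4.42e-06. The first of these was lost without replicate 2 (-0.11) or 3 (-0.16) of vehicle or replicate 1 (-0.16) or 3 (-0.10) of compound 1. RBL1, the pocket protein p107, rose by 0.38 with compound 4 and by 0.44 with compound 5, and had a difference of -0.06 with compound 1. Without both libraries that lay farthest from their groups, 1 regulator rose and 2 fell with compound 1.

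Other mitotic entry regulators showed 0 higher and 2 lower of 18 with compound 1, 5 and 3 with compound 4, and 5 and 4 with compound 5, with medians of -0.05, 0.01 and 0.03. CDC25A, a phosphatase of S phase entry as well as mitosis, rose by 0.61 with compound 4 and by 0.50 with compound 5, more than any of the 45 genes. PLK2, a stress-responsive Polo-like kinase, rose by 0.57 and 0.43. Of 17 genes of the anaphase-promoting complex and its regulators, 1 rose and 1 fell with compound 1, 5 and 2 with compound 4, and 5 and 4 with compound 5, with medians of -0.03, 0.04 and 0.02. These counts do not separate subunits from regulators such as FBXO5 and FZR1. CDC16, a subunit of the complex, rose by 0.26, 0.25 and 0.26. UBE2S, a conjugating enzyme of the complex, fell by 0.20 with compound 1 and by 0.20 with compound 5, with a difference of 0.01 with compound 4. Without both libraries that lay farthest from their groups, 2 genes of this list fell with compound 1.

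Of 7 further checkpoint genes tested, 1 rose with compound 1, 5 with compound 4 and 4 with compound 5, while none of them fell (0 in each comparison), with medians of -0.06, 0.15 and 0.12. KNTC1, a subunit of the complex that brings dynein and MAD proteins to kinetochores, rose by 0.37, 0.42 and 0.54 (adjusted p = 4.68e-06, 2.90e-08 and 7.60e-10). Of 31 further kinetochore and centromere genes, 1 rose and 3 fell with compound 1, 10 and 3 with compound 4, and 12 and 1 with compound 5, with medians of -0.06, 0.06 and 0.07. CENPT, which links the centromere to the NDC80 complex, rose by 0.22, 0.43 and 0.49. The first of these calls was lost without replicate 1 of vehicle (0.14). CENPK rose by 0.25 with compound 4 and by 0.32 with compound 5. Among these 31 genes, 10 or 32.3% rose with compound 4 and 12 or 38.7% with compound 5. Without both libraries that lay farthest from their groups, 1 fell with compound 1.

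Of 20 condensin and cohesin genes, 0 rose and 6 fell with compound 1, 3 and 7 with compound 4, and 5 and 8 with compound 5, with medians of -0.08, -0.02 and -0.07. The condensin subunit genes NCAPH and NCAPD3 fell by 0.24 and 0.23 with compound 1, with differences of 0.05 and -0.02 with compound 4 and 0.06 and -0.08 with compound 5, which did not pass, and NCAPG fell by 0.18 with compound 1 and rose by 0.44 with compound 4 and by 0.29 with compound 5. Of 26 further spindle and kinesin genes, 0 rose and 3 fell with compound 1, 5 and 6 with compound 4, and 8 and 5 with compound 5, with medians of -0.07, 0.01 and 0.02. CKAP2L, a spindle-associated protein, fell by 0.25 with compound 1 and had differences of 0.06 and -0.01 with compounds 4 and 5. Of 16 further cytokinesis genes, 0 rose and 2 fell with compound 1, 4 and 2 with compound 4, and 3 and 3 with compound 5, with medians of -0.03, -0.00 and 0.01. Without both libraries that lay farthest from their groups, 1 rose with compound 1 and 5 fell with compound 5. Of 13 centriole genes 0 passed with compound 1 in limma, and 0 at an unadjusted p under 0.05. With compound 4, 3 rose and 1 fell, and with compound 5, 4 rose and 0 fell, with medians of 0.01, 0.04 and 0.05 for the list.

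Genes of DNA replication, the preceding phase, gave values unlike those of the 45 genes with compounds 4 and 5. Of 44 tested, 27 rose and 1 fell with compound 4, with a median of 0.14, and 31 rose and 1 fell with compound 5, with a median of 0.20. With compound 1, 0 rose and 10 fell, with a median of -0.07. By library, the median deviation of these genes from the vehicle mean was -0.07, 0.01 and -0.18 in replicates 1 to 3 of compound 1, 0.14, 0.15 and 0.14 with compound 4, and 0.29, 0.15 and 0.16 with compound 5. Replicate 2 of compound 1 thus lay near vehicle, and replicate 1 of compound 5 lay above its group. Without replicate 3 of compound 1 and replicate 1 of compound 5, 0 rose and 5 fell with compound 1, and 30 rose and 1 fell with compound 5, with medians of -0.04 and 0.16. For the lists above, the other counts against vehicle moved by no more than 1.5 times in that fit. The share of the 45 genes that rose was 17.8% with compound 4 and 22.2% with compound 5, beside 19% and 15.9% of all genes tested, against 61.4% and 70.5% of the replication genes; this difference between lists is a description and was not tested.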

How the data were processed

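The authors deposited 1 table of regularized log values (log2 scale) for 62757 genes in 12 libraries; per the submitters' processing notes, STAR 2.7.10a, DESeq2 1.30.1 and the build GRCh38 were used. How genes were counted, on which annotation and strand and with which filters, is not stated in these sources, and no counts or library depths were used. Of the rows, 25759 were 0 in every library, and 15524 genes whose mean reached 3 were tested. Group differences were fitted with limma 3.58.1 in R 4.3.3 on all 12 libraries, with 1 mean per group, a mean-variance trend and Benjamini-Hochberg adjustment over all genes tested; calls used an adjusted p of 0.05 and intervals a level of 95%. The fit was run on simulated data, drawn independently for each gene and library with the spread of this same fit. That run checks the code and cannot show that the calls made here are right. Gene coordinates come from GENCODE 29 and promoters from RefSeq (GRCh38.p14). The 45 genes, the lists and the tests were chosen with earlier results of these data known. Named were every listed gene, with values by library for up to 8 called genes in each direction with each compound and for some others fixed by name. Of the other lists up to 3 called genes per list and compound were named, and up to 4 per pair of compounds, to which the lower genes of a pair, CDC20, PLK1 and AURKA, and the intervals of CDK1, ECT2 and KIF4A were added after their values were seen. Alternatives were other filters on low values, median-centred or quantile-normalized libraries, fits on only the groups compared, other variance models, library weights, a replicate block and each library left out in turn. A fit without the library of compound 1 and that of compound 5 that lay farthest from their groups was added after seeing the data. No pairing of the samples by replicate number was evident, which does not exclude one.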

Additional observations from a re-analysis of the deposited data

How the results depend on the processing

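Of 105 called differences of the 45 genes over 6 comparisons, 69 kept their call under all 16 alternative settings of their comparison, of which 6 leave out 1 library. With compound 1 against vehicle, leaving out 1 library gave 11 to 18 lower genes and 0 higher. With compound 4, the 8 lower genes became 5 with no filter on low values, 4 with quantile-normalized libraries and 4 to 7 with 1 library left out; the higher count was 6 to 10. With compound 5, the 11 lower genes became 7 with quantile-normalized libraries and 9 to 13 with 1 library left out; the higher count was 7 to 10. Compound 5 against compound 1 gave 15 to 27 called genes with 1 library left out, and compound 4 against compound 1 gave 21 to 26. Compound 5 against compound 4, with 3 called genes, gave 1 with no filter on low values, 1 without the mean-variance trend, 7 with library weights, 8 without both libraries farthest from their groups, a setting chosen after seeing the data, and 1 to 7 with 1 library left out. Beside the construction of each setting, the cause of these shifts was not tested. With the replicate number as a block, 16 genes were lower with compound 1, 8 were higher and 8 lower with compound 4, 9 were higher and 11 lower with compound 5, and the 3 pairs of compounds gave 23, 25 and 3. No pairing of the samples by number was evident, which does not exclude one. Correlations of deviations between same-numbered libraries ran from -0.2155 to 0.249, with 4 of 18 over 0.1. A library correlated best with its own number in 14 of 36 cases. Between vehicle and compound 1 these correlations were 0.0132, 0.249 and 0.1709 for replicates 1 to 3. No called difference changed sign under the settings run. No depth was given, so its effect could not be assessed; the spread of 3 libraries per group limits small differences.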
